A study of Bos taurus with 6 samples.

Results

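KRT8 and KRT19 are 2 of 232 genes in the authors' list of differences in muscle expression between 2 cattle breeds, Angus and Luxi. They were taken from that list by their symbols, keratin 8 (gene identifier 281269, length 1885 bases) and keratin 19 (gene identifier 514812, length 1402 bases), and both were found. Angus is a Scottish beef breed, and Luxi is a Chinese yellow cattle breed. Muscle RNA of 3 Angus and 3 Luxi animals, all 18 months old, was sequenced as 1 library per animal. The labels name breed, age and tissue. For the muscle sampled, the sex of the animals and any treatment, they give nothing.

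Keratins are the intermediate filament proteins of epithelia. A filament is built from heterodimers of a type I (acidic) and a type II (basic to neutral) chain. KRT8 is the type II chain of simple, single-layered epithelia, where its usual partner is KRT18, and KRT19 is an unusually short type I chain that lacks most of the tail domain. Both proteins are also known from striated muscle, where they occur at costameres, the sites at which the Z-discs and M-lines of the outer myofibrils are tied to the fibre membrane, and where KRT19 binds dystrophin. Both genes thus have a known place in epithelial cells and in the muscle fibre itself, and bulk RNA does not separate these sources. In bulk tissue, fewer cells of a type and less RNA per cell cannot be told apart.

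The deposited table holds a mean per breed, and reads per library were worked back from it. Recovered depths lay between 5429318 and 5736365 reads for the Angus libraries and between 5799075 and 6047227 reads for the Luxi libraries. Each library is named by its depth within its breed, and its animal is unknown. The reads of both keratins had a single whole-number solution in both breeds. RPKM is the read count scaled to the length of the gene and the depth of the library, and RPM is the same value without the scaling to length.

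KRT8, the type II chain, was at 9.80 RPKM in the deepest Angus library, 8.18 in the middle one and 2.25 in the shallowest, from 106, 86 and 23 reads. Its Luxi values were 0.526, 1.35 and 0.640 RPKM in the same order, from 6, 15 and 7 reads. The 3 Angus libraries all lay above the 3 Luxi libraries, and the groups did not overlap. The smallest distance was between the shallowest Angus library and the middle Luxi library, a factor of 1.66. Counting error alone gave these 2 libraries exact 95% Poisson intervals of 1.42 to 3.37 and 0.756 to 2.23 RPKM, which overlap. In the authors' deposited table KRT8 had an Angus mean of 6.74 RPKM and a Luxi mean of 0.839 RPKM, an 8.04-fold ratio with an FDR of 3.56e-12. The spread over the 3 libraries was 3.98 RPKM (SD) in Angus and 0.447 RPKM in Luxi.

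KRT19, the type I chain, was at 6.34 RPKM in the deepest Angus library, 7.80 in the middle one and 0.525 in the shallowest, from 51, 61 and 4 reads. Its Luxi values were 0.944, 2.42 and 0.615 RPKM, from 8, 20 and 5 reads. The groups overlapped: 2 of 3 Angus libraries lay above every Luxi library, and the shallowest Angus library lay below all of them. The exact 95% Poisson interval of that library, 0.143 to 1.35 RPKM, overlapped those of the deepest Luxi library (0.407 to 1.86) and of the shallowest, but not that of the middle Luxi library (1.48 to 3.74). In the authors' deposited table KRT19 had an Angus mean of 4.89 RPKM and a Luxi mean of 1.33 RPKM, a 3.69-fold ratio with an FDR of 0.000967. The SD over 3 libraries was 3.85 RPKM in Angus and 0.962 RPKM in Luxi.

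**Figure D1:**
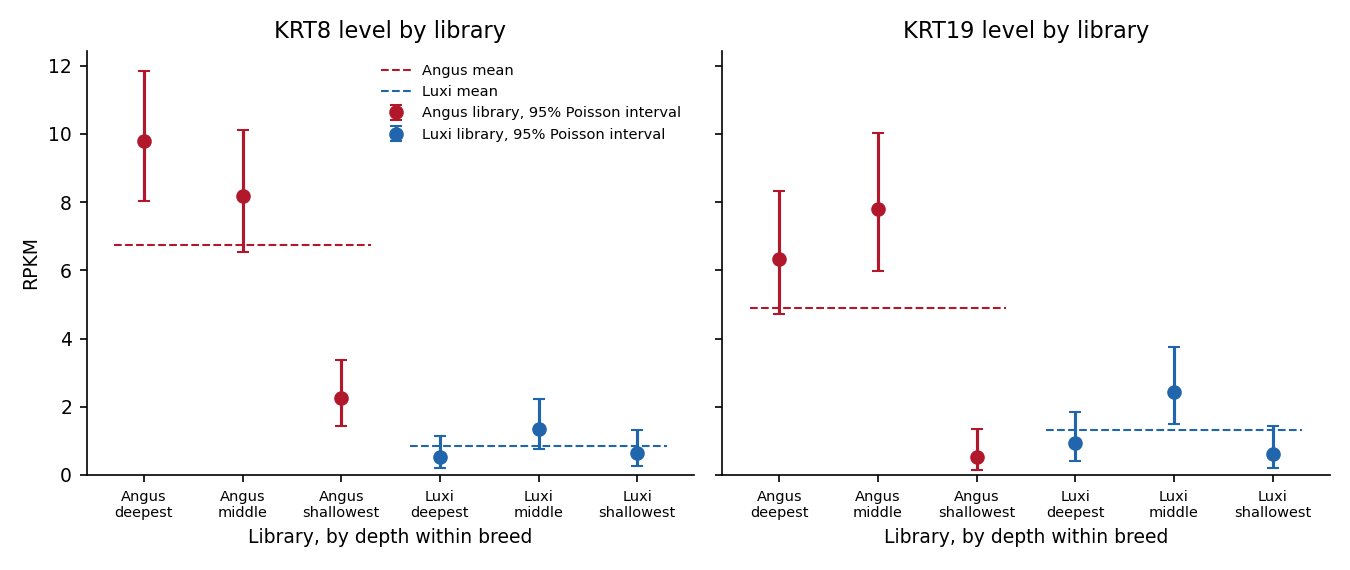
Level of KRT8 (left) and KRT19 (right) in RPKM in each of the 6 libraries, named by depth within breed. Points are libraries, bars are exact 95% Poisson intervals that cover counting error alone, and dashed lines are breed means. For KRT8 the lowest Angus library (2.25 RPKM) is above the highest Luxi library (1.35 RPKM). For KRT19 the shallowest Angus library (0.525 RPKM) is below all Luxi libraries.

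Both genes were chosen from the table of this contrast, so their breed differences are a description and were not tested again. Each row of the table had passed the authors' filter (100% of 232), and Angus was the higher breed for 63.4% of them. Among 25 genes higher in Angus whose reads were known in all 6 libraries and above 0 in both breeds, the libraries of the breeds did not overlap in 14 (56%), KRT8 included and KRT19 not. By the ratio of the lowest Angus to the highest Luxi library, KRT8 had rank 7 of these 25 genes and KRT19 rank 24. From reads summed over the libraries of a breed, the ratio of Angus to Luxi was 8.13 for KRT8 (exact 95% binomial interval 5.47 to 12.5) and 3.72 for KRT19 (2.51 to 5.66). These intervals cover counting error, and the spread between animals is not part of them.

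With the largest p listed taken as the limit, KRT8 stood well inside it and KRT19 at its edge. By ratio, KRT8 had rank 15 and KRT19 rank 34 among the 122 genes that were higher in Angus and above 0 in both breeds. The p-value of KRT8 in the authors' deposited table, 3.81e-14, had rank 54 of the 147 genes higher in Angus. That of KRT19, 3.86e-05, was the largest of all 232 genes in the authors' deposited table. The genes next to it inside the limit were NPDC1, a neural differentiation and control protein, and SIX2, a homeobox transcription factor, with p-values of 3.74e-05 and 3.51e-05 in the authors' deposited table. Genes outside the limit were not analysed here. Neither keratin was abundant among the listed genes: the Angus level of KRT8 had rank 131 and that of KRT19 rank 148 of 232, against a median of 8.87 RPKM. In Luxi, 9.73% of the 185 genes above 0 in both breeds lay below KRT8 and 14.1% below KRT19.

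**Figure D2:**
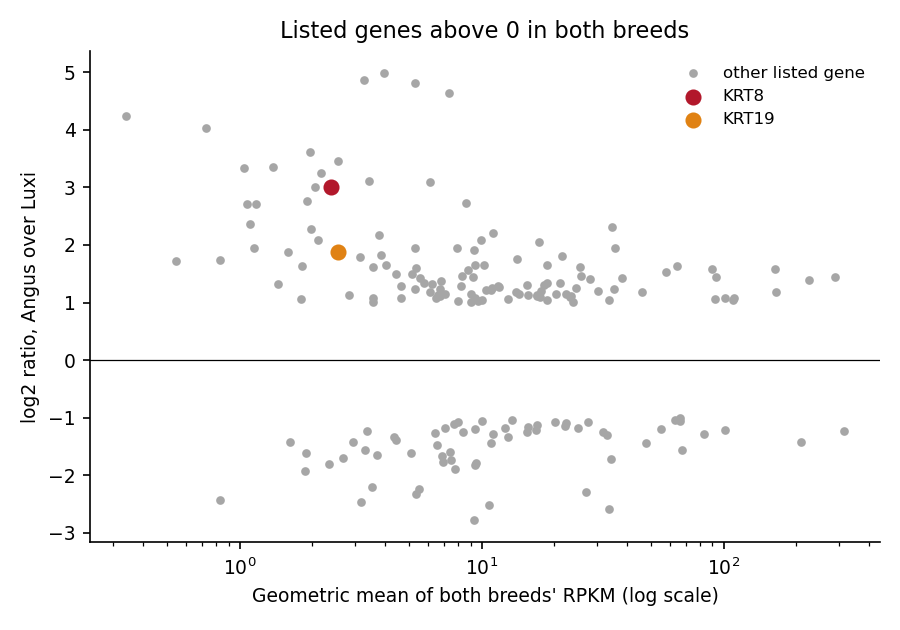
Each point is 1 of the 185 listed genes above 0 in both breeds. The horizontal axis is the geometric mean of the 2 breed RPKM values on a log scale and the vertical axis is the log2 ratio of Angus over Luxi. KRT8 (log2 ratio 3.01) and KRT19 (1.88) lie at low levels, and the band without points around 0 is the authors' limit of 2-fold.

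Over the libraries of a breed, KRT8 varied less than the median of other listed genes in Angus and more in Luxi. KRT19 varied more than that median in both breeds. Counting error is part of this spread, the more so at the few Luxi reads. The coefficient of variation (CV, the SD as a percent of the mean) over the 3 Angus libraries was 59.0% for KRT8 and 78.7% for KRT19. The median CV of 80 other listed genes with known Angus reads was 66.5%, and 35 of these genes varied less than KRT8 and 50 less than KRT19. In the Luxi libraries the CV was 53.2% for KRT8 and 72.5% for KRT19, against a median of 46.4% over 53 other genes, of which 32 varied less than KRT8 and 39 less than KRT19. The highest and lowest Angus libraries differed by a factor of 4.36 for KRT8 and 14.8 for KRT19, and the Luxi libraries by 2.57 and 3.94. The shallowest Angus library held 10.7% of the Angus reads of KRT8 and 3.45% of those of KRT19.

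No single library accounted for the KRT8 ratio. The log2 ratio of Angus over Luxi was 3.01 with all libraries, 2.64 without the deepest Angus library and 3.53 without the middle Luxi library, the lowest and highest of the 6 values. For calls without a library, the p was recomputed with the exact test of 2 Poisson counts by Audic and Claverie. Each breed was taken as 1 library of mean depth, with its mean count cut down to whole reads. The smaller tail was doubled. KRT8 stayed within the largest p and the 2-fold limit of the table whichever library was left out. Of the 25 genes higher in Angus with known reads, 5 (20%) did so. KRT19 was not among them. Its log2 ratio of 1.88 became 1.37 without the middle Angus library (recomputed exact p = 0.00557) and 1.54 without the shallowest Luxi library (recomputed exact p = 0.000326), both past the limit. It also lost its call without the deepest Angus library (log2 ratio 1.65) and without the deepest Luxi library (1.69). The limit used here was the largest p listed, that of KRT19, so any rise in p beyond rounding ended its call here. That limit need not be the authors' own cutoff. Without the middle Luxi library, where KRT19 was highest in Luxi, its ratio was 6.27-fold.

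**Figure D3:**
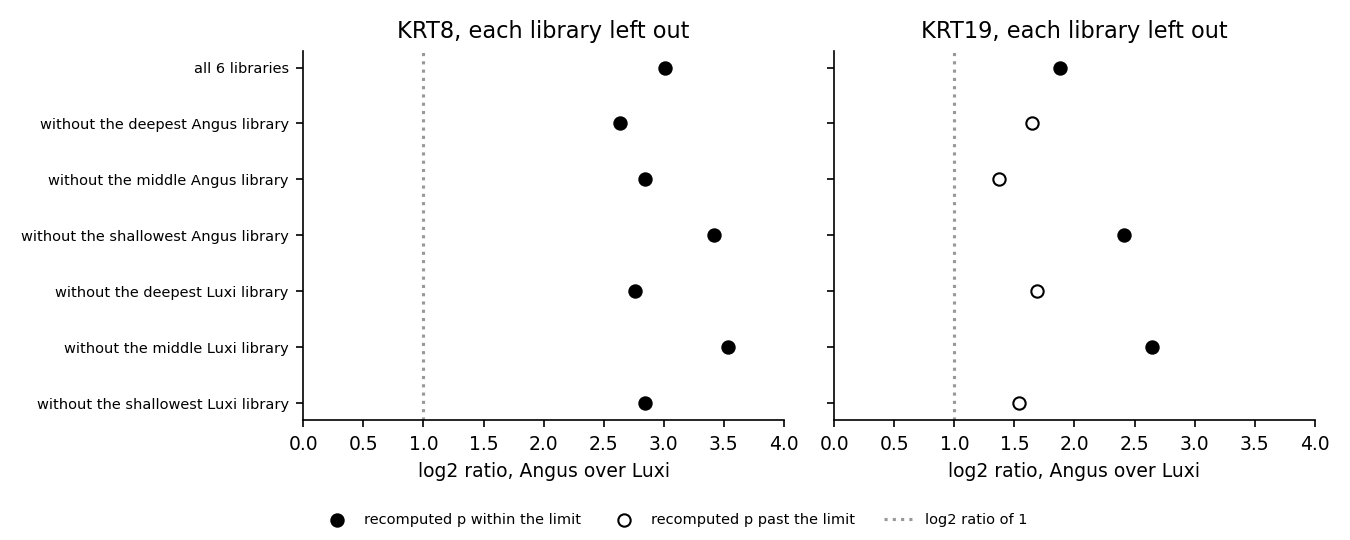
Log2 ratios (Angus over Luxi) for KRT8 (left) and KRT19 (right), with all 6 libraries and without each in turn. Filled points have a recomputed p within the largest deposited p, open points do not, and the dotted line is a log2 ratio of 1. All values are above that line, from 2.64 to 3.53 for KRT8 and from 1.37 to 2.65 for KRT19, and 4 of the KRT19 points are open.

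The balance of the type II to the type I chain, as RPKM of KRT8 over RPKM of KRT19, was read from the same libraries. From deepest to shallowest, it was 1.55, 1.05 and 4.28 among the Angus libraries and 0.558, 0.558 and 1.04 among the Luxi libraries. Each Angus value was above each Luxi value, though the middle Angus and the shallowest Luxi library differed by little, with exact 95% intervals of 0.747 to 1.48 and 0.284 to 4.16. The highest value, in the shallowest Angus library, rested on 23 KRT8 reads and 4 KRT19 reads, and its interval was 1.46 to 17.0. From the breed means, the log2 ratio of KRT8 to KRT19 level was 0.46 in Angus and -0.66 in Luxi, with SDs over 3 libraries of 1.05 and 0.52. This gap between the breeds is the difference of the 2 genes' log2 ratios and so comes from the contrast that chose them. It was not tested.

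**Figure D4:**
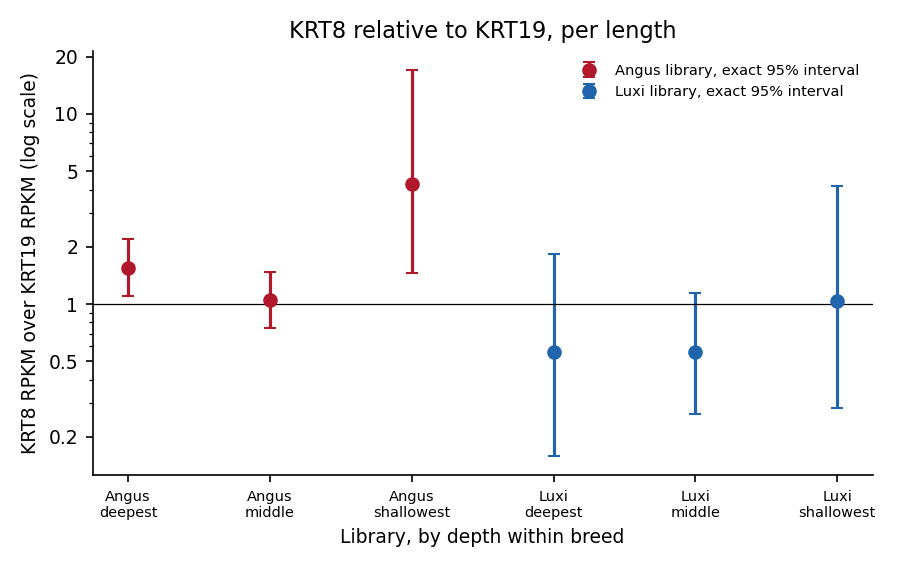
KRT8 RPKM over KRT19 RPKM in each library, on a log scale, with exact 95% intervals from the binomial share of KRT8 in the reads of both genes. The horizontal line marks equal levels. The Angus libraries lie between 1.05 and 4.28 and the Luxi libraries between 0.558 and 1.04.

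Within each breed the 2 keratins varied together. Both were lowest in the shallowest Angus library, at -1.31 for KRT8 and -2.39 for KRT19 relative to the Angus mean, on the scale of log2 RPM with 0.5 read added. Both were highest among Luxi libraries in the middle one, at 0.77 and 1.06 above the Luxi mean. The difference between the breed means was taken off by this centring. Over the 6 libraries Pearson's r of the centred values was 0.96 and Spearman's rho 0.71. The order of the libraries was not the same in full: the deepest Angus library had most KRT8 and the middle one most KRT19. Without the shallowest Angus library r was 0.83, and without any other single library it was between 0.95 and 0.99.

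Likeness was taken among 28 of the 58 genes with known reads in all libraries, those above 0 in both breeds. Genes at 0 in either breed were not compared, among them CIDEC, a lipid droplet protein, at 0 in Luxi. Of the 27 other genes compared, KRT19 was the most like KRT8 and KRT8 the most like KRT19 by this measure. The median r over the 27 genes was 0.13 for KRT8 and 0.09 for KRT19. The points share library and depth, r is a description, and 25 of the 28 genes compared, the keratins included, were higher in Angus. Next to KRT8 came PMP2, a fatty acid-binding protein of peripheral myelin (r = 0.95), TMEM98, a transmembrane protein (0.92), SFRP5, a secreted inhibitor of Wnt signalling (0.83), and SKAP1, an adaptor of T cells (0.65). Next to KRT19 came SFRP5 (0.93), TMEM98 (0.85), PMP2 (0.82) and LOC786033, annotated as similar to an MHC class I gene (0.66).

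From deepest to shallowest library, PMP2 had 63, 39 and 8 Angus reads and 2, 19 and 6 Luxi reads. TMEM98 had 27, 33 and 9 Angus reads and 2, 5 and 4 Luxi reads. SFRP5 had 78, 101 and 40 Angus reads and 28, 29 and 25 Luxi reads. All 3 genes were lowest in the shallowest Angus library and highest, among Luxi libraries, in the middle one, as both keratins were. The range of SFRP5 in Luxi was far smaller. These 3 genes were picked by r over the same libraries, so the shared pattern is a description and no separate support. Of the 28 genes, 12 were lowest among Angus libraries in the shallowest and 10 were highest among Luxi libraries in the middle one. Both held for 6 genes, which were the keratins, PMP2, TMEM98, SFRP5 and WISP2, a secreted matrix protein named here after its values were seen.

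**Figure D5:**
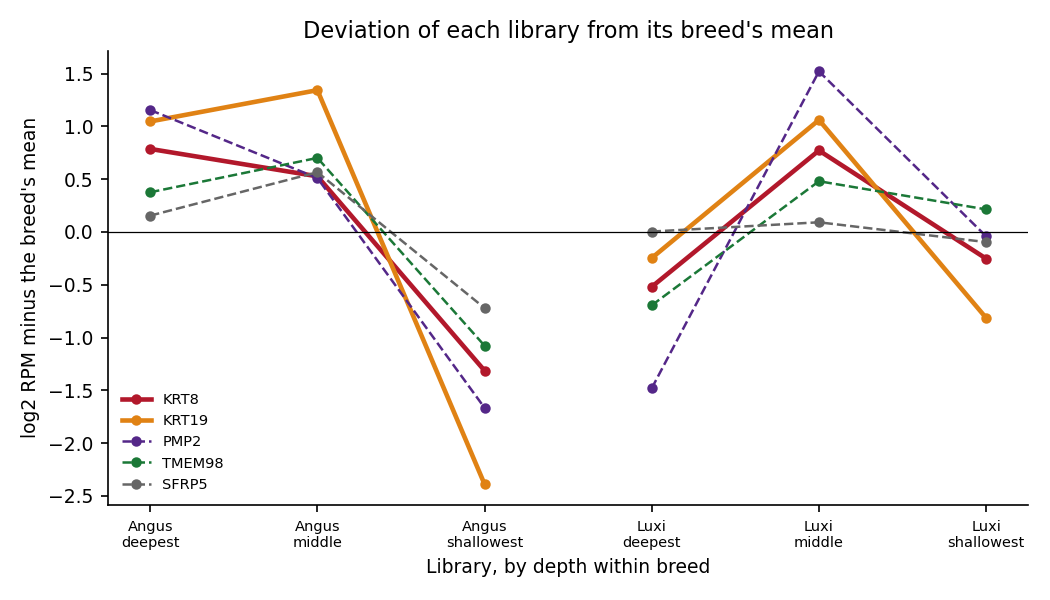
Log2 RPM (0.5 read added) of each library minus the mean of its breed, for KRT8, KRT19 and the 3 genes PMP2, TMEM98 and SFRP5. Lines join the libraries of a breed for 1 gene and do not stand for an order. The shallowest Angus library is the lowest for all 5 genes, at -1.31 for KRT8 and -2.39 for KRT19.

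Few other genes of the keratin system could be followed. Of 5 simple keratins (KRT7, KRT8, KRT18, KRT19 and KRT20), KRT8 and KRT19 were listed and both were higher in Angus. KRT18, the usual partner of KRT8, was not analysed here. None of 15 keratins of stratified epithelia and hair, 14 desmosome proteins, which anchor keratin filaments at cell junctions, 18 epithelial cell markers such as EPCAM and CDH1, or 9 markers of mesothelium was listed. The levels of unlisted genes were not analysed here, nor was the share of all measured genes that was listed. With that share unknown, a count of 0 does not set these lists apart from other genes. In the RefSeq gene table of assembly ARS-UCD2.0, used here for gene order with both keratins matched by gene identifier, KRT8 lies between KRT18 and KRT78 among the type II keratins, and KRT19 between KRT15 and KRT9 among the type I keratins. These clusters lie on different chromosomes with 28 and 29 keratin symbols, of which the list held KRT8 and KRT19 alone. Of the 40 nearest protein-coding genes to each keratin, 0 were listed. Neither the labels nor the table say how reads shared by several keratin genes were counted.

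None of 11 genes for other muscle intermediate filaments and their linkers, such as DES, VIM and PLEC, was listed. The same held for 19 costamere and integrin anchorage genes, such as VCL and TLN1. These counts too lack the listed share of all measured genes to be set against. The Gene Ontology terms in the authors' deposited table placed both keratins in the I band, the region of the sarcomere around the Z-disc, and at the plasma membrane. The third listed gene with the I band term was LOC100337233, named here after its values were seen, with a description like that of a Z-disc protein. It was 2.68-fold higher in Luxi, with means of 344 RPKM there and 128 RPKM in Angus in the authors' deposited table. KRT8 carried 13 terms and KRT19 carried 9, and 5 were shared. KRT8 was the single listed gene with the term intermediate filament, and KRT19 the single one with actomyosin structure organization.

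Markers of some other cell types and fibre states differed between the breeds beside the keratins. For the tissue label, 2 of 18 muscle fibre markers were listed, MYH4, a fast myosin heavy chain, and MYL3, a slow myosin light chain. Both were above 0 in both breeds, MYH4 at a low level in Luxi. In the authors' deposited table MYH4 had means of 28.3 RPKM in Angus and 1.00 RPKM in Luxi. MYL3 had means of 365 and 139 RPKM in the same order. It made up most of the summed level, 393 RPKM in Angus and 140.2 RPKM in Luxi. Of the nerve and Schwann cell list, the authors' deposited table gave the adhesion molecule L1CAM an Angus mean of 2.51 RPKM and a Luxi mean of 0.486 RPKM. The neural cell adhesion molecule NCAM1 had means of 5.17 and 2.46 RPKM in the same columns of that table, also higher in Angus. The mast and other immune cell list had 4 of 10, all higher in Angus, with sums of 12.9 and 2.26 RPKM. Over all 232 listed genes, Angus was the higher breed for 63.4%. The share of all measured genes that was listed was not analysed here. The adipocyte list had 2 of 8, ADIPOQ and CIDEC, with sums of 18.8 and 5.14 RPKM, and CIDEC was listed at 0 in Luxi. Markers of regenerating or denervated fibres split, with MYH3 and NCAM1 higher in Angus and ACTC1 and GADD45A higher in Luxi, and tendon and fibroblast markers had COMP and PRG4, both higher in Luxi. None of 10 endothelial and smooth muscle markers was listed. The part of these cell types in the keratin difference was not tested.

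Where reads were known, these markers could be set beside the keratins library by library. CIDEC, a lipid droplet protein, had 56, 31 and 3 Angus reads from the deepest to the shallowest library, the same order as KRT8. The mast cell genes TPSB1 (a tryptase) and CPA3 (a carboxypeptidase) had 51, 4 and 12 and 77, 10 and 32 reads. Both were thus highest in the deepest Angus library, as KRT8 was, and lowest in the middle one, where KRT19 was highest. In the Luxi libraries TPSB1 had 4, 1 and 2 reads and CPA3 15, 4 and 7, lowest in the middle library, where both keratins were highest. Other genes of the same list had other orders. KIT, the receptor tyrosine kinase of mast cells, had 14, 27 and 12 Luxi reads, highest in the middle library as both keratins were, and its Angus reads had more than 1 solution. SKAP1 had 48, 19 and 8 Angus reads, the same order as KRT8, and 4, 3 and 5 Luxi reads. The list thus had no common order over the libraries. Of the tendon genes, PRG4 had 6, 10 and 12 Angus reads and 148, 6 and 10 Luxi reads, and COMP had 51, 2 and 11 Luxi reads and was listed at 0 in Angus. ACTC1, an actin of heart and developing muscle, had 8, 25 and 93 Angus reads, highest in the shallowest library, where both keratins were lowest. The reads of ADIPOQ and NCAM1 in both breeds, and those of L1CAM in Angus, had more than 1 solution and could not be compared in this way. CIDEC was thus the only listed adipocyte marker that could be.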

How the data were processed

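The members and gene lists were chosen with earlier results of these data known, and nothing here was chosen blind to them. Per the labels' protocols, RNA was extracted with Trizol and libraries were made from total RNA by Illumina's procedure for a HiSeq2000. The aligner, gene set, build and statistical test are not stated there. The authors deposited, per the file headers, a mean read count and a mean RPKM per breed, the log2 ratio of Luxi over Angus, and a p-value and FDR for each gene. From the values, the counts are means of 3 libraries, and an RPKM of 0.001 stands where the count is 0. Ratios were turned to Angus over Luxi.

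Reads per library were recovered by searching for depths at which each gene's mean count and mean RPKM, printed to 6 digits, can both come from whole reads. For each breed a single set of depths was left, known within 4 reads. A single solution was found for 82 Angus and 58 Luxi genes. With the RPKM read to 1 unit in the last digit, 42 Angus and 43 Luxi genes had a single solution. Comparisons with other genes were not redone at that setting. Genes above 6000 summed reads (1 Angus, 3 Luxi) were not solved. On 6 simulated tables the depths were found, within a small tolerance, in 6. The single solutions matched the simulated reads for 381 of 381 genes. These simulations solved only genes of low summed reads, far below 6000, a range that holds both keratins. Genes of higher counts were not checked in this way. The authors' p-value was recomputed for 130 genes (those above 1e-10), and 121 came within 5% of it. These were 79 of 79 genes higher in Angus and 42 of 51 genes higher in Luxi. Named genes were the keratins, listed genes of 15 fixed lists, the 2 genes next to KRT19 by p, and the 5 genes most like each keratin. Likeness was taken over genes of at least 10 reads and above 0 in both breeds. Some listed members of these lists are not reported here. Intervals cover counting error only, as no molecular identifiers tell PCR copies apart. Python 3.11.15, NumPy 2.4.6 and SciPy 1.17.1 were used.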

Additional observations from a re-analysis of the deposited data

How the results depend on the processing

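KRT8 stayed more than 2-fold higher in Angus under all 10 alternatives that gave it a value. Its p was recomputed without each library and from summed reads, and stayed within the largest p listed. In the other settings the p was not recomputed. Leaving out each library gave log2 ratios of 2.64 to 3.53 for KRT8 and 1.37 to 2.65 for KRT19. KRT19 lost its call without the deepest Angus (1.65), middle Angus (1.37), deepest Luxi (1.69) or shallowest Luxi library (1.54), and kept its direction. With 1 RPKM added the log2 ratios were 2.07 and 1.34, and as means of log2 RPM 2.80 and 1.38. With a minimum mean count of 10 in both breeds KRT8, at 9.33 in Luxi, has no value. With the RPKM read to 1 unit in the last digit, KRT8 had 3 solutions in Angus, with 22 to 24 reads in the shallowest library, and KRT19 had 1. The r between the keratins was 0.81 when not centred by breed. Its values without a library were chosen after seeing the data. Of the 19 listed members of the lists, 13 had at least a 3-fold ratio. No paired analysis was possible because the labels pair no animals across the breeds and the animal behind each recovered library is unknown. The Luxi levels rest on 5 to 20 reads a gene and library, which limits what can be seen in that breed.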
